A study of Mus musculus with 12 samples.

Results

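The lipogenic program comprised 10 genes that SREBP1c is known to drive in liver, out of the 18820 genes with a probe set of their own on the Affymetrix Mouse Gene 1.1 ST array. They were Srebf1, Acly, Acaca, Fasn, Scd1, Elovl6, Thrsp, Mid1ip1, Pnpla3 and Me1, taken by symbol, and 10 of 10 passed the filter of a mean log2 intensity of at least 5. Liver RNA was measured on 12 arrays in 6 groups of 2, all from female BALB/cByJ mice aged 2.5 months with food available freely. Pml KO mice were left untreated, or were given acetaminophen (APAP, 300 mg/kg i.p. in warmed PBS) and killed after 2 h or 6 h, and Pml wt (wild-type) mice formed the same 3 groups. APAP is a pain reliever that injures hepatocytes in overdose, and PML organises the nuclear bodies named after it. Which stretch of Pml the KO lacks, whether untreated mice received PBS, the time of day at death and whether each array is a separate animal are not stated in the labels. The p-values therefore measure only the spread between these samples. Having 2 arrays a group limits the precision.

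SREBP1c, 1 of the products of Srebf1, is held in the endoplasmic reticulum by SCAP and INSIG proteins and enters the nucleus after cleavage in the Golgi. In the fed liver, insulin and the oxysterol receptor LXR raise Srebf1 transcription, and SREBP1c together with ChREBP, the glucose-sensing factor encoded by Mlxipl, turns on the enzymes that make fatty acids. Fasting lowers the same program. ACLY makes cytosolic acetyl-CoA, ACC1 (Acaca) carboxylates it to malonyl-CoA, FASN builds palmitate, ELOVL6 lengthens it and SCD1 adds a double bond.

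RefSeq starts were matched for 9 of the 10 genes, and 4 windows are shown because they stand upstream of the genes on which the results below turn most and carry 1 kind of motif or none. Each is 250 bases ending just before the start site, written on the gene's strand in build GRCm38.p6, and the capitals mark matches to CCAAT (the NF-Y box) or GGGCGG (the Sp1 box) on either strand. Thrsp lay at chr7:97417551-97417800 on the minus strand, Acly at chr11:100528001-100528250 on the minus strand, Mid1ip1 at chrX:10717115-10717364 on the plus strand and Elovl6 at chr3:129532136-129532385 on the plus strand.
Thrsp: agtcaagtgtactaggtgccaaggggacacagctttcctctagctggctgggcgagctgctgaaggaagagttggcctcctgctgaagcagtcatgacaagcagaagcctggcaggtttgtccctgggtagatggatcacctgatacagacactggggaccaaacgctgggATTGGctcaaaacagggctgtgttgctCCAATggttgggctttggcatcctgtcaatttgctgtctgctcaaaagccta
Acly: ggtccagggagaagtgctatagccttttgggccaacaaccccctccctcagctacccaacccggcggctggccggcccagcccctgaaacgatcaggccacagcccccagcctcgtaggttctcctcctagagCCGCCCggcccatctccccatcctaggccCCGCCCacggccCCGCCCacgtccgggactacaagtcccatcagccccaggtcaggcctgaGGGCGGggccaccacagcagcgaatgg
Mid1ip1: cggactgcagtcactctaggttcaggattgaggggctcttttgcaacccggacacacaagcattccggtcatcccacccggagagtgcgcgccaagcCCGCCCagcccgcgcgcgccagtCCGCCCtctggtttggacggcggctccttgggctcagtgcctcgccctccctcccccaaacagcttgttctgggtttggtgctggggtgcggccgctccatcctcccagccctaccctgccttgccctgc
Elovl6: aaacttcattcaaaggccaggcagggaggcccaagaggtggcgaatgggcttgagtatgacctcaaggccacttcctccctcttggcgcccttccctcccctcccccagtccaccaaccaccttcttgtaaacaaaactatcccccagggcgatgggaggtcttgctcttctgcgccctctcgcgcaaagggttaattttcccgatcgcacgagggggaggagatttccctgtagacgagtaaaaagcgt
The Thrsp window held 2 CCAAT boxes, Acly held 4 GGGCGG boxes, Mid1ip1 held 2, and the Elovl6 window held no match to any of the 4 motifs searched. In these 4 windows no match overlapped another. Over all starts of the 9 genes, CCAAT stood upstream of 5 genes and GGGCGG upstream of 5, against 37.5% and 35.4% of all 27025 genes with windows of this length, counted in the same way. The sterol regulatory element TCACNCCAC was found upstream of 0 of the 9 genes and of 1.22% of all genes, and the E-box CACGTG upstream of 0 and of 6.86%. With shares this low, 0 of 9 genes does not set the lipogenic genes apart. The Acaca window, chr11:84195188-84195437, lay well inside the span of its gene, 84129635 to 84401651. A match is a description of letters in these windows and not of binding.

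Pml, the check of the genotype labels, had log2 intensities of 7.10 and 7.97 without APAP in KO liver, 7.11 and 7.50 after 2 h, and 7.09 and 7.16 after 6 h. The wt arrays read 8.18 and 8.46 without APAP, 7.82 and 7.92 2 h after it, and 7.87 and 7.88 6 h after it. Array 2 of the untreated KO mice, numbered by its replicate number as all arrays below, thus fell among the wt arrays, and the mean difference over the 3 conditions was -0.70 ± 0.14 (SE of the fit, limma adjusted p = 0.035). Where its probe set lies relative to the deleted stretch is not stated. On the first principal component, which held 49.4% of the variance, KO 6 h array 2 had a score of 19.8, against 39.7 for KO 6 h array 1 and 44.8 and 42.9 for the wt 6 h arrays. Where calls of the lipogenic genes changed without either of these KO arrays, this is stated below. The Pml difference is not given without them, nor are the marker counts apart from that of the bile duct. Hepatocyte markers summed to intensities of 63958 to 78312 over the 12 arrays, and the 10 of 10 measured, Alb among them, had group means above 11.4 on the log2 scale. The 6 measured fat tissue markers summed to 438.9 to 551, with group means of Adipoq, Plin1, Lep, Retn and Adig between 4.77 and 6.36 and of Lipe between 7.53 and 7.95 on the log2 scale.

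At 2 h after APAP, 8 of the 10 lipogenic genes were called lower than untreated in each genotype: Srebf1, Acly, Acaca, Fasn, Scd1, Elovl6, Thrsp and Mid1ip1. In KO liver 0 rose, against a background of 20.8% of the 17052 tested genes called lower and 10.6% higher, and the median difference of the 10 genes was -2.02 against -0.06 for all genes. In wt liver 0 rose as well, the background was 6.17% lower and 6.53% higher, and the medians were -1.88 and 0.02. A call here is a limma p adjusted over all tested genes of under 0.05. In bulk liver, fewer cells expressing a gene and less RNA per cell cannot be told apart. The calls of the 8 genes in KO liver held with each of the 12 arrays left out in turn, the untreated KO array 2 included. In wt liver the count was 6 without untreated array 2 and 6 without 2 h array 2, the calls lost being of Acaca and Scd1. Of 8 Kupffer cell and macrophage markers, 3 were called lower and 0 higher at 2 h in each genotype. At 6 h 4 were lower and 2 higher in KO, Cd68 by 0.71 and Marco by 0.38, and 5 were lower and 1 higher in wt, Cd68 by 1.24, where 19.1% of tested genes were called lower and 15.8% higher in KO and 22% lower and 16.5% higher in wt. No hepatocyte marker was called lower at 2 h in either genotype, and Tat was called higher in wt. Of the stellate cell markers, Lrat and Col3a1 were called lower at 2 h in each genotype and Pdgfrb in KO. Of the markers of sinusoidal endothelium, Stab2, Kdr and Fcgr2b were called lower at 2 h in KO. The other markers of these lists were not called at 2 h. Among hepatocyte markers at 6 h, Ttr and Serpinc1 were called lower in each genotype and Tat in KO. Lrat, Reln and Col3a1 were called lower at 6 h in wt. Stab2, Kdr and Fcgr2b were lower at 6 h in each genotype and Clec4g in wt, while Lyve1 and Pecam1 were higher in wt. The other hepatocyte, stellate cell and endothelial markers were not called at 6 h. The part of these cell types in the falls of the lipogenic genes was not tested.

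**Figure D1:**
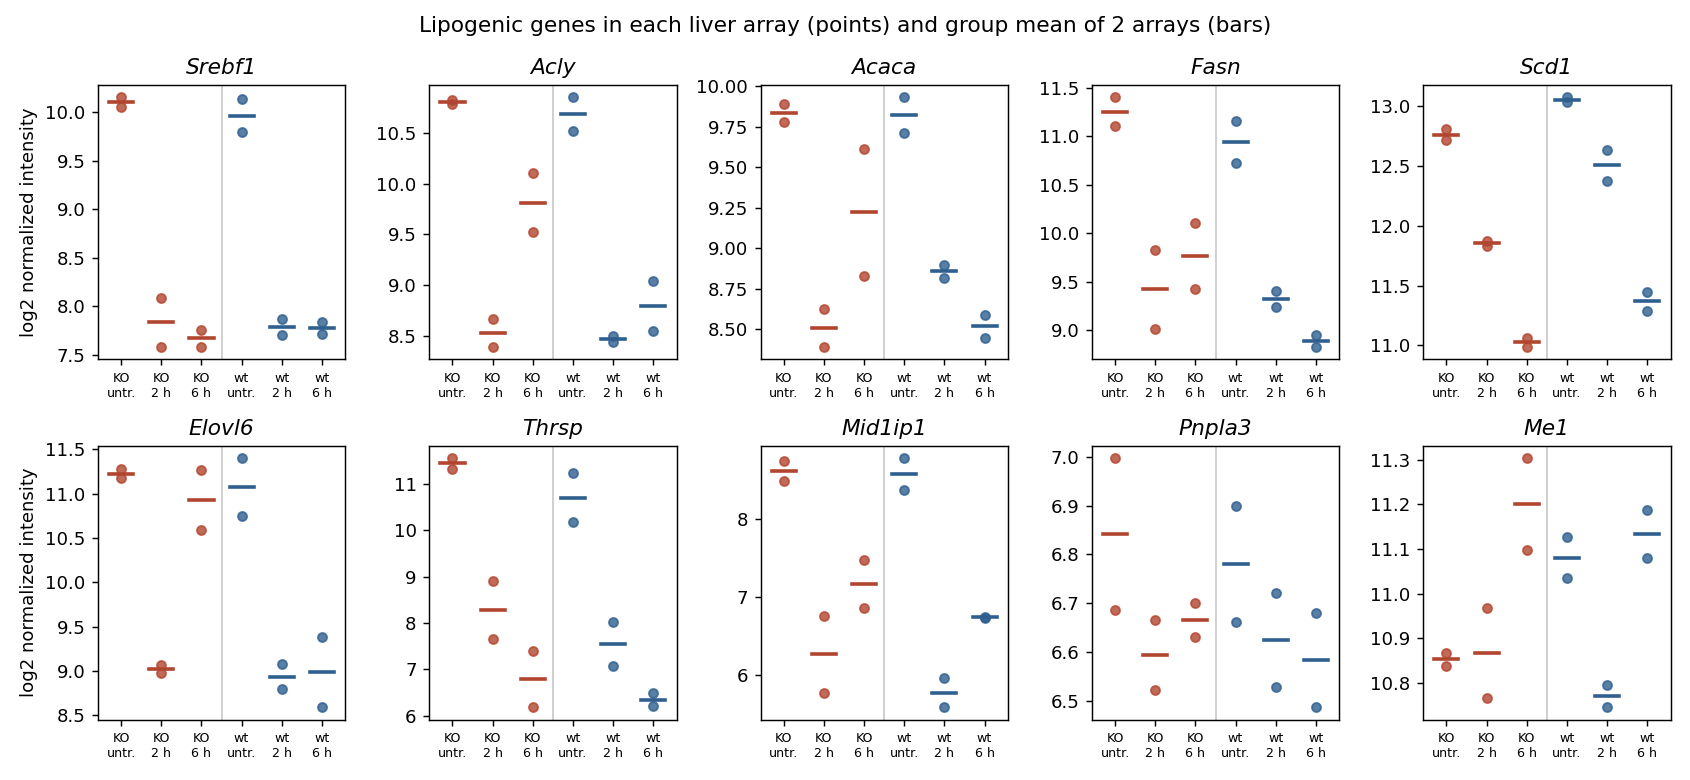
Log2 normalized intensity of each lipogenic gene (y axis, own scale per panel) in the 6 groups (x axis), KO in red and wt in blue; points are arrays and bars the mean of 2 arrays. The plot shows the fall of Srebf1 by 2 h in both genotypes and the KO arrays of Elovl6 at 6 h, 10.6 and 11.3, above the wt arrays at 6 h, 8.59 and 9.39.

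Srebf1, the gene of the transcription factor itself, read 10.05 and 10.15 without APAP in KO liver, 8.09 and 7.59 2 h after it, and 7.59 and 7.76 6 h after it. The wt arrays gave 9.80 and 10.13 without APAP, 7.70 and 7.87 2 h after it, and 7.84 and 7.71 6 h after it. Every treated array lay more than 1 log2 unit below every untreated array, and the treated arrays of the genotypes overlapped. At 2 h Srebf1 was 4.79-fold lower than untreated in KO (-2.26 ± 0.17, limma adjusted p = 4.55e-05) and 4.53-fold lower in wt (-2.18 ± 0.17, limma adjusted p = 7.51e-05). At 6 h the differences from untreated were -2.43 ± 0.17 in KO and -2.19 ± 0.17 in wt, and between 2 h and 6 h it did not pass the test in either genotype. The values are those of Srebf1 as a whole, not of SREBP1c alone.

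Acly, which supplies cytosolic acetyl-CoA, stood at 10.79 and 10.83 without APAP in KO liver, 8.66 and 8.39 2 h after it, and 9.52 and 10.11 6 h after it. Values in wt were 10.52 and 10.85 without APAP, 8.49 and 8.44 2 h after it, and 8.54 and 9.04 6 h after it. The treated arrays lay below the untreated arrays of their genotype at both times, and at 6 h both KO arrays lay above both wt arrays. Acly fell at 2 h by 2.28 ± 0.21 in KO and by 2.22 ± 0.21 in wt, a fold of 4.86 in KO and of 4.67 in wt. At 6 h it was lower than untreated by a log2 difference of -0.995 ± 0.21 in KO and -1.90 ± 0.21 in wt.
Acaca, the gene of ACC1, read 9.78 and 9.89 without APAP in KO liver, 8.62 and 8.39 2 h after it, and 8.83 and 9.61 6 h after it. Its wt arrays read 9.71 and 9.93 without APAP, 8.82 and 8.90 2 h after it, and 8.59 and 8.45 6 h after it. No treated array reached an untreated one, and the KO 6 h arrays were the farthest apart of any group. Acaca fell at 2 h by 1.33 ± 0.21 in KO and by 0.96 ± 0.21 in wt, and at 6 h by 0.62 ± 0.21 in KO (limma adjusted p = 0.0429) and by 1.31 ± 0.21 in wt. The KO call at 6 h ended with 9 of the 12 arrays left out in turn, at an adjusted p of 0.169 without untreated KO array 2 and 0.327 without KO 6 h array 1. A second Acaca probe set gave differences of the same sign in these 4 comparisons. With the probe sets of a gene averaged, the KO difference at 6 h was -0.54 and did not pass the test (limma adjusted p = 0.0974).
Fasn, the gene of the synthase, had intensities of 11.11 and 11.40 without APAP in KO liver, 9.82 and 9.01 2 h after it, and 9.43 and 10.10 6 h after it. The wt values were 10.73 and 11.15 without APAP, 9.23 and 9.40 2 h after it, and 8.83 and 8.94 6 h after it. The treated arrays stayed below all untreated arrays. Fasn fell at 2 h by 1.84 ± 0.28 in KO and by 1.62 ± 0.28 in wt, and at 6 h by 1.49 ± 0.28 in KO and by 2.05 ± 0.28 in wt.

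Elovl6, the elongase of palmitate, read 11.17 and 11.28 without APAP in KO liver, 9.07 and 8.97 2 h after it, and 10.59 and 11.27 6 h after it. The wt arrays had 10.75 and 11.40 without APAP, 9.07 and 8.80 2 h after it, and 8.59 and 9.39 6 h after it. At 2 h the genotypes overlapped, whereas at 6 h the KO arrays lay near the untreated arrays and the wt arrays to either side of the 2 h arrays. Elovl6 fell 4.61-fold at 2 h in KO (-2.21 ± 0.29, limma adjusted p = 0.000714) and 4.41-fold in wt (-2.14 ± 0.29, limma adjusted p = 0.00134). At 6 h the difference from untreated was -0.30 ± 0.29 in KO, which did not pass the test (limma adjusted p = 0.467), and -2.09 ± 0.29 in wt (limma adjusted p = 0.000358).
Scd1, the desaturase, stood at 12.72 and 12.81 without APAP in KO liver, 11.88 and 11.83 2 h after it, and 10.99 and 11.06 6 h after it. The wt pair of each condition read 13.08 and 13.04 without APAP, 12.64 and 12.38 2 h after it, and 11.29 and 11.45 6 h after it. The 3 conditions did not overlap in either genotype, and in each condition both KO arrays lay below both wt arrays. Scd1 fell at 2 h by 0.91 ± 0.11 in KO and by 0.55 ± 0.11 in wt, and by 6 h by 1.74 ± 0.11 in KO and by 1.69 ± 0.11 in wt. The wt call at 2 h ended without untreated array 1, untreated array 2 or 2 h array 2, at limma adjusted p of 0.0608, 0.0594 and 0.0884.

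Thrsp, whose small nuclear and cytosolic protein Spot 14 is tied to lipogenesis and answers to thyroid hormone, fell further than the other 9 genes in all 4 comparisons with untreated liver. It read 11.32 and 11.55 without APAP in KO liver, 8.91 and 7.66 2 h after it, and 6.19 and 7.41 6 h after it. Its wt levels were 10.16 and 11.23 without APAP, 8.01 and 7.08 2 h after it, and 6.49 and 6.21 6 h after it. The treated arrays lay below the untreated ones throughout. At 6 h Thrsp was 24.9-fold lower than untreated in KO (-4.64 ± 0.51, limma adjusted p = 0.000108) and 20.3-fold lower in wt (-4.34 ± 0.51, limma adjusted p = 0.000131).
Mid1ip1, a relative of Thrsp whose protein promotes the polymerization of ACC, read 8.75 and 8.49 without APAP in KO liver, 6.76 and 5.77 2 h after it, and 6.86 and 7.48 6 h after it. The wt arrays showed 8.79 and 8.37 without APAP, 5.96 and 5.58 2 h after it, and 6.74 and 6.74 6 h after it. Its lowest arrays in both genotypes were those at 2 h. It fell 5.13-fold at 2 h in KO (-2.36 ± 0.30) and 7.01-fold in wt (-2.81 ± 0.30), and at 6 h its difference from untreated was -1.45 ± 0.30 in KO and -1.84 ± 0.30 in wt.

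Pnpla3 and Me1 did not follow the other 8. Pnpla3, the gene of a lipid droplet protein, lay between 6.486 and 6.998 in all 12 arrays, and none of its differences passed the test, the widest being -0.25 ± 0.14 in KO at 2 h (limma adjusted p = 0.1995). Me1, whose malic enzyme makes NADPH for fatty acid synthesis, lay between 10.74 and 11.30. It had intensities of 10.87 and 10.84 without APAP in KO liver, 10.97 and 10.77 2 h after it, and 11.30 and 11.10 6 h after it. Wt intensities were 11.03 and 11.13 without APAP, 10.79 and 10.74 2 h after it, and 11.08 and 11.19 6 h after it. Its rise of 0.35 ± 0.11 at 6 h in KO passed the test (limma adjusted p = 0.0336), but not without untreated KO array 1, untreated KO array 2 or KO 6 h array 1, at adjusted p of 0.0994, 0.132 and 0.207. In wt the difference at 6 h was 0.05 ± 0.11 and at 2 h -0.31 ± 0.11, neither past the test.

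At 6 h after APAP, 7 of the 10 genes were called lower and 1 higher in KO liver, where 19.1% of tested genes were called lower and 15.8% higher. In wt liver 8 were called lower and 0 higher, against a background of 22% and 16.5%. The median difference from untreated was -1.22 over the 10 genes in KO and -1.87 in wt, against -0.05 for all genes in each. Without KO 6 h array 2 the KO counts were 7 lower and 1 higher, and without untreated KO array 2 they were 6 lower and 0 higher. Within a genotype the 2 h and 6 h comparisons share the untreated arrays.

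**Figure D2:**
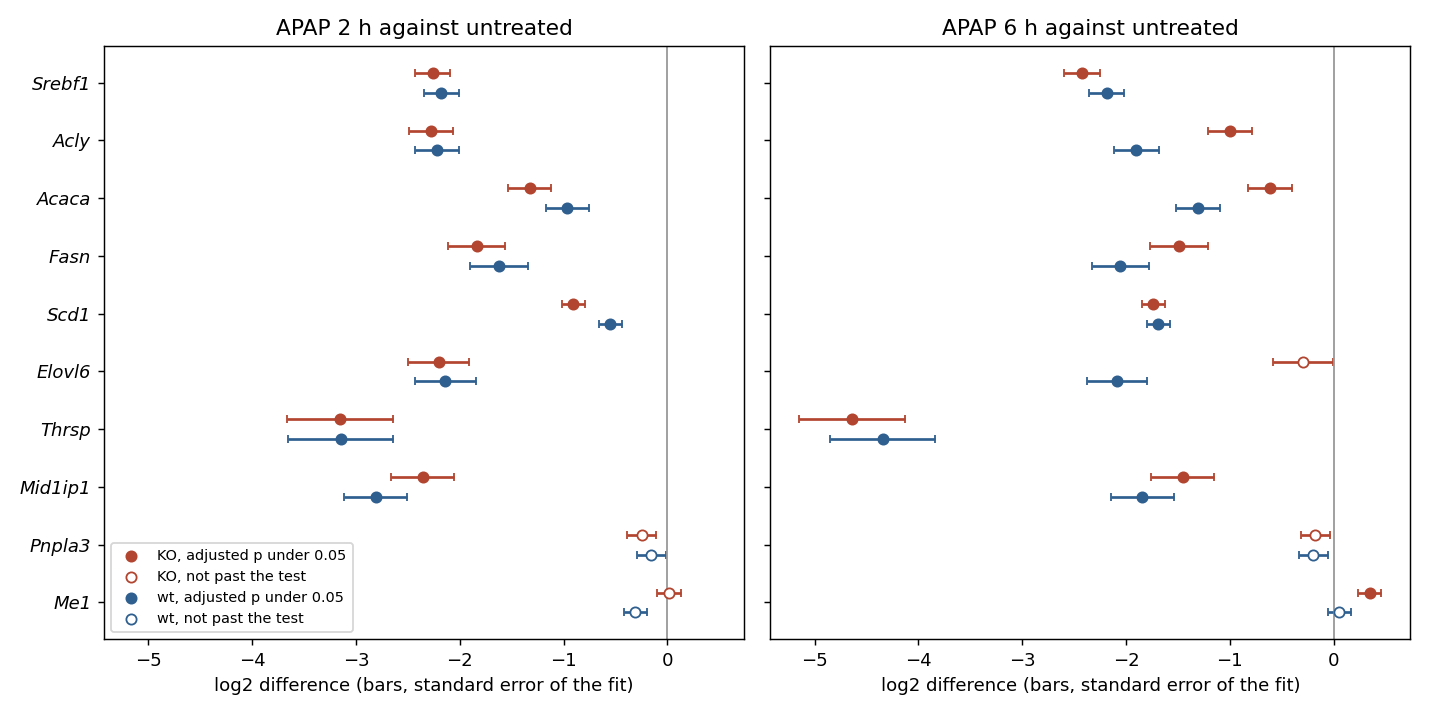
Log2 difference from untreated (x axis) for each lipogenic gene (y axis) at 2 h (left) and 6 h (right) after APAP, KO in red above wt in blue; bars are standard errors of the fit and filled points passed the test. At 2 h the genotypes lie close, and at 6 h Elovl6 stands at -0.30 in KO and -2.09 in wt.

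In KO liver 5 were called higher at 6 h than at 2 h (background 19.1%) and 2 lower (background 12.6%). Elovl6 rose by 1.91 ± 0.29 (limma adjusted p = 0.00104), Acly by 1.29 ± 0.21 (limma adjusted p = 0.00153), Mid1ip1 by 0.90 ± 0.30, Acaca by 0.71 ± 0.21 and Me1 by 0.33 ± 0.11. With the probe sets of a gene averaged, the Me1 rise was 0.28 and did not pass the test (limma adjusted p = 0.0776). Scd1 fell by 0.83 ± 0.11 and Thrsp by 1.49 ± 0.51, while Srebf1 stood at -0.16 ± 0.17 and Fasn at 0.35 ± 0.28, neither past the test. The calls of Elovl6, Acly and Scd1 held with every array left out in turn, and those of Acaca, Thrsp, Mid1ip1 and Me1 did not. Without untreated KO array 2, 3 were called higher and 1 lower, and without KO 6 h array 2, 3 higher and 2 lower.

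In wt liver 2 genes were called higher at 6 h than at 2 h (background 10.9%), Mid1ip1 by 0.97 ± 0.30 and Me1 by 0.36 ± 0.11, and 1 was called lower (background 16.8%), Scd1, which fell by 1.14 ± 0.11 (limma adjusted p = 0.000209). The 2 higher calls both ended without wt 2 h array 1, wt 2 h array 2, wt 6 h array 1 or wt 6 h array 2, at limma adjusted p between 0.0641 and 0.186. Acly stood at 0.32 ± 0.21, Elovl6 at 0.05 ± 0.29, Acaca at -0.34 ± 0.21 and Fasn at -0.43 ± 0.28, none past the test.

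The step between 2 h and 6 h, KO minus wt, was tested directly. It passed for 1 of the 10 genes, Elovl6, at 1.86 ± 0.41 (limma adjusted p = 0.0344), where 7.03% of tested genes passed in either direction and 4.97% as higher. This call ended with 8 of the 12 arrays left out in turn, at adjusted p of 0.0531 without untreated KO array 1 or untreated KO array 2, 0.0828 and 0.111 without wt 2 h array 1 and array 2, and 0.0717 and 0.0571 without KO 2 h array 1 and array 2. It was 0.116 without wt 6 h array 1 and 0.116 without KO 6 h array 2. Acaca at 1.05 ± 0.30 and Acly at 0.96 ± 0.30 had limma adjusted p of 0.0585 and 0.0773, and both passed without KO 6 h array 1, at 0.00472 and 0.0256, as did Acly without wt 6 h array 2, at 0.0428.

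No lipogenic gene passed the test between the untreated genotypes. Of the 10, 0 were called by limma between untreated KO and wt liver, where 0.00586% of tested genes were called, and 1, Scd1, had an unadjusted p under 0.05. The Scd1 difference was -0.30 ± 0.11 (limma adjusted p = 0.9999), and the widest was that of Thrsp, 0.74 ± 0.51. At 2 h only Scd1 was called, at -0.65 ± 0.11 in KO against wt (limma adjusted p = 0.0276), where 2.01% of tested genes were called and 1.6% as lower. That call ended without wt 2 h array 1, wt 2 h array 2 or KO 2 h array 1, at 0.13, 0.0738 and 0.105. Quantile normalization put the median of all genes in this comparison at -0.012, against -0.099 as deposited, and the call held. Averaged over the 3 conditions, Scd1 was the 1 gene called, lower in KO by a log2 difference of -0.43 ± 0.06 (limma adjusted p = 0.015, background 1.78%, and 1.45% as lower). It was lower in 6 of 6 KO arrays than in the wt arrays of the same condition, and without untreated KO array 1 its adjusted p was 0.0529. Elovl6 was called as well without wt 6 h array 2 or KO 6 h array 1.

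At 6 h, 2 of the 10 genes were called higher in KO than in wt liver and 0 lower, where 9.02% of tested genes were called, 4.09% as higher and 4.93% as lower. Elovl6 was 3.84-fold higher in KO (1.94 ± 0.29, limma adjusted p = 0.00617) and Acly 2.03-fold higher (1.02 ± 0.21, limma adjusted p = 0.0196). Fasn at 0.88 ± 0.28, Acaca at 0.70 ± 0.21, Mid1ip1 at 0.43 ± 0.30 and Scd1 at -0.34 ± 0.11 did not pass. Srebf1 stood at -0.10 ± 0.17. The Elovl6 and Acly calls rested on single arrays. Without KO 6 h array 2 their differences were 1.60 and 0.73 with limma adjusted p of 0.0507 and 0.127, and without wt 6 h array 1 they were 1.54 and 0.77 with 0.0527 and 0.156. Without KO 6 h array 1, 4 genes were called, Acaca and Fasn with them, and Fasn was called also without either KO 2 h array.
The response to APAP at 6 h, KO minus wt, passed the test for 0 of the 10 genes in limma (background 0.487%), and 3 had an unadjusted p under 0.05. These were Elovl6 at 1.79 ± 0.41 (limma adjusted p = 0.0923), Acly at 0.90 ± 0.30 and Acaca at 0.69 ± 0.30. Without KO 6 h array 1 the count was 2, Elovl6 and Acaca, and without wt 6 h array 2 it was 1, Elovl6. At 2 h 0 of the 10 passed (background 0.0293%), and 1, Scd1, had an unadjusted p under 0.05.

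**Figure D3:**
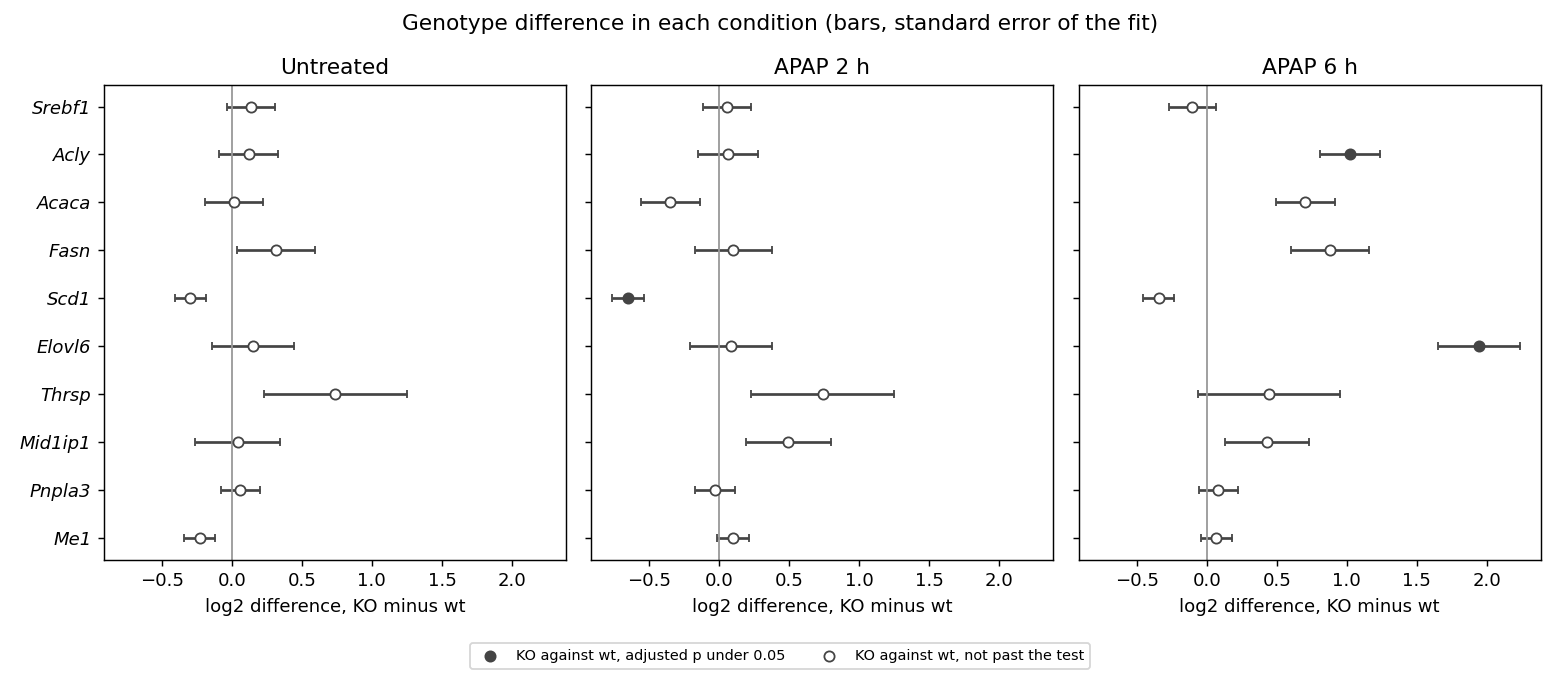
Log2 difference KO minus wt (x axis) of each lipogenic gene (y axis) untreated, at 2 h and at 6 h; bars are standard errors of the fit, filled points passed the test. Filled are Scd1 at 2 h, and Acly and Elovl6 at 6 h.

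Neutrophil markers moved with the same contrast at 6 h. In wt liver at 6 h 7 of 8 were called higher than untreated, and in KO liver 0 of 8, where 16.5% of all tested genes were higher in wt and 15.8% in KO. The neutrophil markers summed to 610.5 and 487.4 in the KO 6 h arrays, against 4361 and 2104 in the wt 6 h arrays and 422.5 to 813.9 in the other 8 arrays. Of these 8 markers 6 were called lower in KO than in wt at 6 h. In that comparison 4.93% of all tested genes were called lower and 4.09% higher. Retnlg and Mmp8, which are in both counts, passed the filter only through the wt 6 h group. Their means there were 8.675 and 8.616, against 4.435 to 5.789 and 3.656 to 6.287 in the other groups. Their calls are therefore not separate from the filter. Of the 4 bile duct markers measured, 2 were called lower in KO at 6 h, with sums of 848.4 and 398.2 in KO and 726.3 and 1004 in wt, and this count was 0 or 1 with 9 of the 12 arrays left out in turn. Of 8 Kupffer cell markers 1 was called higher in KO, with sums of 3705 and 4111 in KO and 3309 and 3651 in wt. Of 6 markers of sinusoidal endothelium 1 was called lower, with sums of 4171 and 5064 in KO and 5591 and 4899 in wt, and of 7 stellate cell markers 0 were called, with sums of 5356 and 5690 in KO and 5666 and 5803 in wt. Of the 10 hepatocyte markers 1 was called lower in KO, and of the 6 fat tissue markers 0. The part of these cell types in the 6 h differences of the lipogenic genes was not tested.

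The order of the groups differed between genes. For Srebf1, from low to high, it ran KO 6 h, wt 6 h, wt 2 h and KO 2 h, with steps between neighbours that did not pass the test, and then untreated wt and untreated KO. The step between KO 2 h, with a mean log2 level of 7.84, and untreated wt, with 9.96, was 2.12. For Elovl6 wt 2 h, wt 6 h and KO 2 h lay between 8.94 and 9.02 on average, then KO 6 h at 10.93, untreated wt at 11.08 and untreated KO at 11.23, with 1 step past the test, that between KO 2 h and KO 6 h. For Acly the order was wt 2 h, KO 2 h, wt 6 h, KO 6 h, untreated wt and untreated KO, with steps past the test on both sides of KO 6 h. For Scd1 it was KO 6 h, wt 6 h, KO 2 h, wt 2 h, untreated KO and untreated wt, with steps past the test on both sides of KO 2 h. For Pnpla3 and Me1 no step passed. The Acly step between wt 6 h and KO 6 h and the Scd1 step between KO 2 h and wt 2 h are genotype calls given above. Both ended when single arrays were left out. The groups were put in order by the same means that the steps compare.

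Of 16 measured further enzymes of fatty acid synthesis and NADPH supply, 7 were lower and 0 higher at 2 h in KO, and 5 lower and 2 higher at 2 h in wt. Of all tested genes 20.8% were lower and 10.6% higher at 2 h in KO and 6.17% lower and 6.53% higher in wt. At 6 h 7 of the list were lower and 1 higher in KO and 12 lower and 1 higher in wt, where 19.1% of all tested genes were lower and 15.8% higher in KO and 22% lower and 16.5% higher in wt. The median differences at 6 h were -0.22 in KO and -0.51 in wt, against -0.05 for all genes in each. Acss2, which activates acetate, fell by 1.499 ± 0.18 at 2 h and 2.63 ± 0.18 at 6 h in KO and by 1.51 ± 0.18 and 2.39 ± 0.18 in wt. The citrate carrier Slc25a1 fell by 0.62 ± 0.11 and 0.86 ± 0.11 in KO and by 0.56 ± 0.11 and 0.92 ± 0.11 in wt. Pgd, an NADPH-producing enzyme of the pentose phosphate pathway and the 1 higher gene at 6 h, rose by 1.43 ± 0.14 in KO and 0.93 ± 0.14 in wt, and was higher in KO than in wt at 6 h by 0.64 ± 0.14 (limma adjusted p = 0.0247). It was the 1 gene of the list called between genotypes at 6 h. The count was 0 without wt 6 h array 1 or KO 6 h array 2, 2 without KO 6 h array 1 or either KO 2 h array, and 3 without wt 6 h array 2. The count lower in wt at 6 h was 7 without untreated wt array 1, untreated wt array 2 or wt 6 h array 1. The count lower in wt at 2 h was 1 without untreated array 2 or 2 h array 1 and 3 without untreated array 1 or 2 h array 2, and the 2 higher there were 0 or 1 without any of these 4 arrays.

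Among 17 genes of SREBP processing and regulators of lipogenesis, 4 were lower and 1 higher at 2 h in KO, and 2 lower and 1 higher in wt, where the shares of all tested genes were 20.8% lower and 10.6% higher in KO and 6.17% lower and 6.53% higher in wt. The 2 h counts thus lay near those shares. At 6 h 10 were lower and 2 higher in KO and 10 lower and 0 higher in wt, against 19.1% of all tested genes lower in KO and 22% in wt. Mlxipl, which encodes ChREBP, fell in all 4 comparisons, by 1.11 ± 0.18 at 2 h and 1.74 ± 0.18 at 6 h in KO and by 1.26 ± 0.18 and 1.85 ± 0.18 in wt. Insig1, which retains SREBP precursors and is itself an SREBP target, stood at -0.11 at 2 h in KO, not past the test, and fell by 2.63 ± 0.24 at 6 h, while in wt it fell by 1.08 ± 0.24 at 2 h and 1.85 ± 0.24 at 6 h. Insig2, its paralog with a fasting-induced form in mouse liver, rose at 2 h by 1.001 ± 0.17 in KO and 1.08 ± 0.17 in wt, and stood at 0.18 in KO and 0.38 in wt at 6 h, not past the test. Nr1h3, the gene of LXR alpha, fell by 0.53 ± 0.10 at 2 h in KO and stood at -0.17 in wt, and at 6 h stood at -0.18 in KO and fell by 0.72 ± 0.10 in wt. For Insig1 and Nr1h3, a call in only 1 genotype is not a test of the difference between genotypes. At 6 h Nr1h3 was 0.57 ± 0.10 higher in KO than in wt (limma adjusted p = 0.0126). Both genes of this list called higher in KO at 6 h, Nr1h3 and Mlx, lost the call without wt 6 h array 1 or KO 6 h array 2, and 1 of the 2 did without wt 6 h array 2 or any of the untreated KO and wt 2 h arrays. The count lower in KO at 6 h was 6 without untreated KO array 1 or array 2 and 5 without KO 6 h array 1. The 2 lower in wt at 2 h were 1 without untreated array 2 or either 2 h array.

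**Figure D4:**
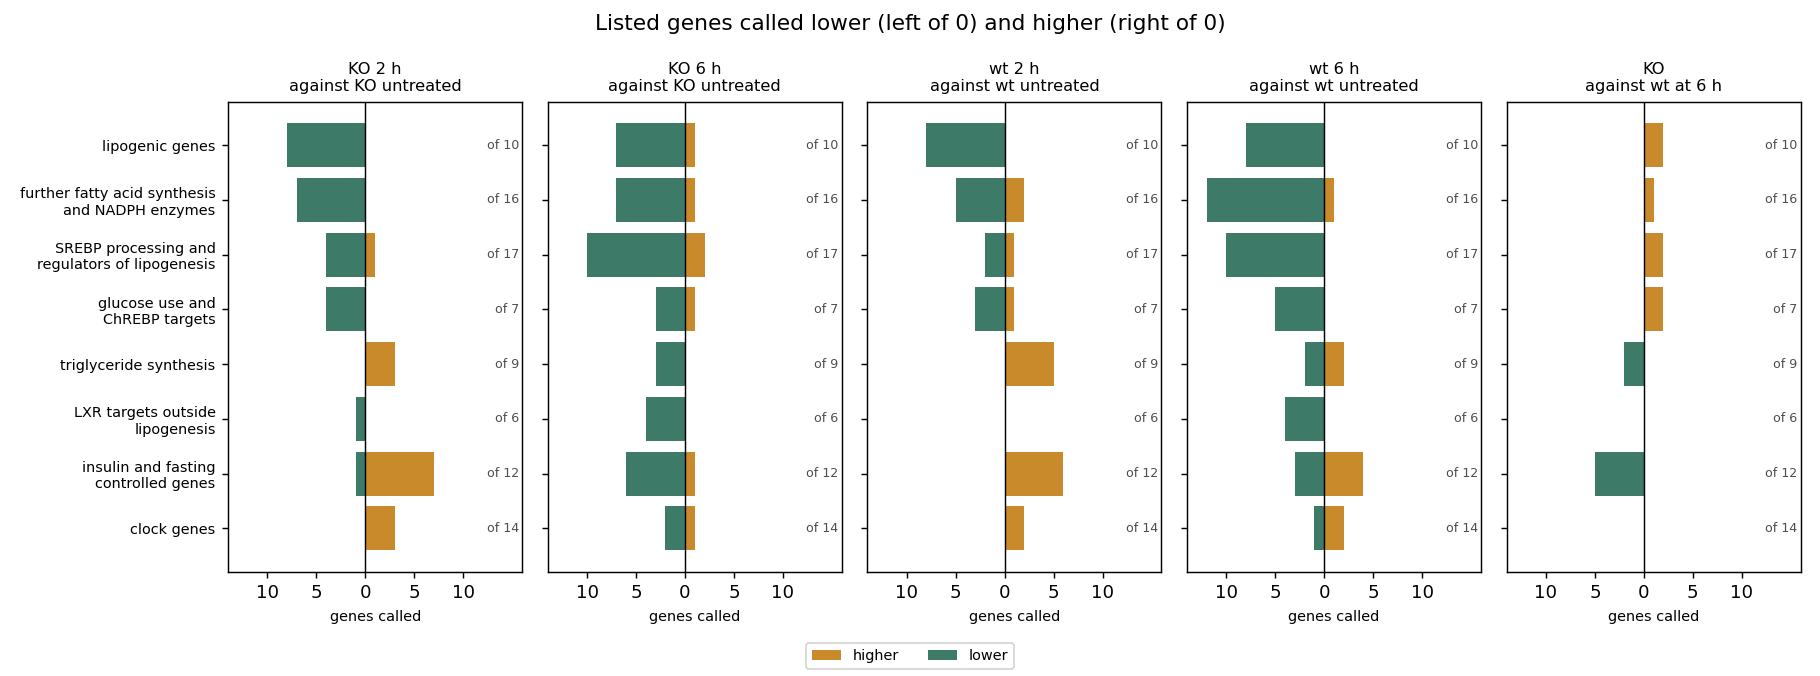
Number of genes called lower (left of 0, green) and higher (right of 0, ochre) on the x axis, for the 10 lipogenic genes and 7 related lists (y axis), in 5 comparisons; the number measured stands at the right of each panel. The lipogenic genes show 8 lower at 2 h in each genotype, and the insulin and fasting controlled genes show 7 higher at 2 h in KO and 6 in wt.

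Of 7 measured genes of glucose use and ChREBP targets, 4 were lower at 2 h in KO and 3 lower and 1 higher in wt, and at 6 h 3 were lower and 1 higher in KO and 5 lower in wt. The shares of all tested genes called lower were 20.8% at 2 h in KO, 6.17% at 2 h in wt, 19.1% at 6 h in KO and 22% at 6 h in wt. Tkfc, the triokinase of fructose breakdown, fell by 1.25 ± 0.23 at 2 h in KO and 1.28 ± 0.23 in wt. At 6 h it stood at 0.42 in KO, not past the test, and fell by 1.06 ± 0.23 in wt. Pklr, the liver pyruvate kinase, fell by 1.65 ± 0.46 at 2 h in KO and by 2.03 ± 0.46 in wt, and at 6 h stood at -0.76 in KO, not past the test, and fell by 2.59 ± 0.46 in wt. The response at 6 h, KO minus wt, did not pass the test for either gene. It was 1.475 ± 0.32 for Tkfc and 1.83 ± 0.65 for Pklr (limma adjusted p = 0.0808 and 0.207). Both were called higher in KO than in wt at 6 h, Tkfc by 1.55 ± 0.23 (limma adjusted p = 0.00572) and Pklr by 1.76 ± 0.46 (limma adjusted p = 0.0413). This count of 2 was 0 without wt 6 h array 1 or KO 6 h array 2 and 1 without any of the 4 untreated arrays or either wt 2 h array. The count of 4 at 2 h in KO was 1 without untreated KO array 1 and 2 without untreated KO array 2 or KO 2 h array 2. The count of 3 lower in wt was 0 without wt 2 h array 1 and 1 without wt 2 h array 2 or either untreated wt array. Pfkfb1 of this list was not analysed here.

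Among triglyceride synthesis genes none was called lower at 2 h: of 9 measured, 3 were higher and 0 lower in KO and 5 higher and 0 lower in wt, where 10.6% and 6.53% of all tested genes were higher in KO and in wt. Lpin1 and Lpin2, phosphatidate phosphatases, rose by 2.02 ± 0.36 and 1.79 ± 0.29 in KO and by 2.64 ± 0.36 and 1.80 ± 0.29 in wt. At 6 h 3 were lower in KO and 2 lower and 2 higher in wt, where 19.1% of all tested genes were lower in KO and 22% lower and 16.5% higher in wt. Gpam, a mitochondrial acyltransferase and SREBP1c target, fell at 6 h by 1.32 ± 0.15 in KO and by 1.04 ± 0.15 in wt. At 6 h Lpin1 was lower in KO than in wt by a difference of -1.78 ± 0.36 and Lpin2 by -1.66 ± 0.29 (limma adjusted p = 0.018 and 0.00999), and both calls ended without wt 6 h array 1 or KO 6 h array 2. The count of 5 in wt at 2 h was 2 without untreated wt array 2 and 3 without untreated wt array 1 or wt 2 h array 1, and the count of 3 in KO at 6 h was 1 without untreated KO array 2 or KO 6 h array 1.
Of 6 LXR targets outside lipogenesis, 1 was lower at 2 h in KO and 0 in wt, and 4 were lower at 6 h in each genotype. Of all tested genes 20.8% and 6.17% were lower at 2 h in KO and in wt, so that the 2 h counts were below those shares, and 19.1% and 22% were lower at 6 h. Abcg5 and Abcg8, the sterol exporters, fell at 6 h by 0.73 ± 0.17 and 0.51 ± 0.17 in KO and by 1.16 ± 0.17 and 1.09 ± 0.17 in wt, while Abca1 stood at -0.29 in KO and -0.09 in wt, not past the test. The LXR count in KO at 6 h was 0 without untreated KO array 2 and 1 without KO 6 h array 1.

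Of 12 measured genes controlled by insulin and fasting, 7 were higher and 1 lower at 2 h in KO, and 6 higher and 0 lower in wt, where 10.6% of all tested genes were higher in KO and 6.53% in wt. Fgf21, a fasting hormone of the liver, rose by 4.56 ± 0.56 in KO and 3.52 ± 0.56 in wt. Igfbp1, which insulin represses, rose by 2.54 ± 0.24 in KO and 2.86 ± 0.24 in wt, and Pdk4, which spares glucose in fasting, by 2.81 ± 0.51 in KO and 2.67 ± 0.51 in wt. At 6 h 6 were lower and 1 higher in KO and 3 lower and 4 higher in wt, against 19.1% of all tested genes lower and 15.8% higher in KO and 22% lower and 16.5% higher in wt. Pck1, the gluconeogenic carboxykinase that insulin represses, fell by 1.64 ± 0.11 at 6 h in KO and stood at -0.16 in wt, not past the test.
In KO against wt liver at 6 h, 5 of the 12 were lower and 0 higher, where 4.93% of all tested genes were lower: Igfbp1 at -3.30 ± 0.24 (limma adjusted p = 0.000156), Pck1 at -1.36 ± 0.11 (limma adjusted p = 0.000243), Irs2 at -1.66 ± 0.34, G6pc at -0.87 ± 0.19 and Pdk4 at -2.01. This count was 2 without wt 6 h array 1, 3 without KO 6 h array 2 and 8 without KO 6 h array 1. The 6 lower in KO at 6 h against untreated were 3 without untreated KO array 1 or KO 6 h array 2. The 6 higher in wt at 2 h were 3 without wt 2 h array 1, and the 4 higher and 3 lower in wt at 6 h were 2 and 1 without wt 6 h array 1.

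Since SREBP1c and ChREBP targets follow feeding and the time of day, clock genes are given beside them. Of 14 measured, 3 were higher at 2 h in KO and 2 in wt, and at 6 h 1 was higher and 2 lower in KO and 2 higher and 1 lower in wt. The shares of all tested genes called higher were 10.6% in KO and 6.53% in wt at 2 h, and at 6 h 15.8% were higher and 19.1% lower in KO and 16.5% higher and 22% lower in wt, so that the 6 h counts lay below them. Ciart, a repressor of the clock, rose by 5.35 ± 0.67 at 2 h in KO and by 4.76 ± 0.67 in wt, and Per1 by 1.44 ± 0.31 in KO and 2.20 ± 0.31 in wt. Arntl stood at -1.02 in KO and -0.75 in wt at 2 h and Clock at 0.11 in KO and 0.29 in wt, not past the test. At 6 h the 1 higher in KO was 0 without untreated KO array 1 or KO 6 h array 1 and 2 without KO 6 h array 2, the 2 lower in KO were 1 without either untreated KO array, and the 1 lower in wt was 3 without untreated wt array 1 or either KO 6 h array. Between KO and wt at 2 h 1 of the 14 was called, Per2, higher in KO by 1.49 ± 0.32 (limma adjusted p = 0.0479), where 2.01% of all tested genes were called. That call ended with 9 of the 12 arrays left out in turn. Between KO and wt at 6 h 0 of 14 were called by limma and 4 had an unadjusted p under 0.05, among them Ciart at -2.38 ± 0.67 (limma adjusted p = 0.0532). The part of the time of day or of food intake in the fall of the lipogenic genes was not tested.

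Against the mean of their standardized log2 values over the 12 arrays, Fasn had a Pearson r of 0.971, Acly 0.963, Acaca 0.948, Srebf1 0.94 and Mid1ip1 0.94, while Elovl6 had 0.887 and Thrsp 0.884. Pnpla3 had 0.778, Scd1 0.63 and Me1 0.102. Each of these genes is part of that mean, which raises its own r. Among the other tested genes, the 8 whose values lay nearest to that mean profile were Mapre2 at 0.974, Psmb10 at 0.972, Zfp760 at 0.971, Cutal at 0.971, H13 at 0.971, Lama4 at 0.971, Nod1 at 0.969 and Reps2 at 0.967. Mapre2 encodes a microtubule end-binding protein, Psmb10 a subunit of the immunoproteasome and Nod1 a sensor of bacterial peptidoglycan. These r values are over 12 arrays that share 6 groups and were ranked among 17052 genes, and they are given as a description only.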

How the data were processed

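Affymetrix Expression Console and RMA are named in the submitters' processing notes, without versions. The authors deposited normalized intensities, which are on a linear scale, and array medians ran between 79.9 and 90.1. Log2 of the deposited values was taken here with no pseudocount. Of 35556 probe sets, 21218 carried 1 symbol in the platform's annotation. The probe set with the highest mean stood for a gene, and 17052 genes with a mean log2 of at least 5 were fitted in limma 3.58.1 (R 4.3.3) as 6 group means over 12 arrays. The residual degrees of freedom were 6 and the prior ones 4.33. In each of 13 comparisons p-values were two-sided and adjusted over all tested genes by Benjamini-Hochberg, and errors after ± are standard errors of the fit. The fit was tested on simulated data.

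The 10 genes, the pathway and marker lists and the rule for naming were chosen with earlier results of these data known. Named are the 10 genes, Pml, up to 4 called genes with the smallest p per list, the regulators Mlxipl, Insig1, Insig2, Nr1h3 and Pck1, and the 8 genes most alike. Pdk4 in the genotype comparison, Abca1, Arntl, Clock, Per2 and single members of marker lists were named after their values were seen. Some list genes are not reported here. Groups were taken from titles, and for 1 wt 2 h array with a shortened title from its source name. Replicate numbers were checked as pairs: deviations of same-numbered arrays correlated at -0.134 to 0.185 over 15 pairs of groups, 4 of them over 0.1, so the numbers were treated as names. Promoter windows came from RefSeq (GRCm38.p6). Alternatives were no filter or a stricter one (mean log2 of at least 7), quantile normalization, averaging the probe sets of a gene, a variance trend, log2 of the value plus 16, a fit restricted to the compared groups, a block for the replicate number, and leaving out each array in turn. List counts without each array were added after the data were seen. No use was made of probe sets without a symbol or with several.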

Additional observations from a re-analysis of the deposited data

Results flagged for a closer look

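The step between 2 h and 6 h after APAP differed between genotypes for Elovl6 in a direct test, at 1.86 ± 0.41 KO minus wt (limma adjusted p = 0.0344): the step was 1.91 in KO and 0.05 in wt. This call ended with 8 of the 12 arrays left out in turn, at adjusted p of 0.0531 to 0.116, and in a fit of the compared groups only, at 0.0689. For Acaca both KO arrays at 6 h lay above both KO arrays at 2 h, while both wt arrays at 6 h lay below both wt arrays at 2 h, and the steps, 0.71 in KO and -0.34 in wt, differed by 1.05. That difference did not pass its test (limma adjusted p = 0.0585).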

How the results depend on the processing

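With the compared groups only, the 10 genes gave 3 calls for KO 6 h against 2 h, 0 for KO against wt at 2 h, 0 at 6 h and 0 for the KO minus wt step between 2 h and 6 h, and all genes gave 3101, 52, 142 and 95, with 2 for KO against wt untreated and 23 for the response difference at 2 h. The mean of 3 conditions uses all 6 groups, so that setting changes nothing there. For KO 6 h against untreated it ended the calls of Acaca and Me1, at limma adjusted p of 0.122 and 0.0788. For wt 6 h against 2 h it ended the Me1 call, at 0.0549, while Fasn and Thrsp were called lower, at 0.0411 and 0.0231. Quantile normalization gave 4 members for KO 6 h against 2 h, and over all genes 197 for KO against wt at 2 h, 191 for the mean of 3 conditions and 698 for the late step. It also changed the share of higher genes among the called genes, which is not a share of all tested genes. That share was 44.7% against 33.9% for KO 2 h against untreated, 50.3% against 20.5% for KO against wt at 2 h and 38.7% against 18.4% for the mean of 3. It was 28.6% against 40% for the response difference at 2 h and 49.1% against 70.7% for the late step. A mean log2 of at least 7 gave 2 members for the late step (Acaca too), 201 genes for the mean of 3 and 1 for the response difference at 2 h, and has no value for Pnpla3. That difference had 11 genes with a variance trend and 8 with log2 of the value plus 16. KO against wt untreated had 0 genes with no filter, 0 with the block and 0 with plus 16.

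With the replicate number as a block, which the pairing check does not bear out, the mean of 3 conditions gave 2 members (Elovl6 at adjusted p 0.0489) and KO against wt at 2 h gave 550 genes. In that fit the Thrsp call for KO 6 h against 2 h ended (adjusted p 0.0627).

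Leaving out 1 array gave these lowest and highest counts of the 10 genes. Against untreated they were 8 and 8 for KO 2 h, 6 and 8 for KO 6 h, 6 and 8 for wt 2 h and 8 and 8 for wt 6 h. For 6 h against 2 h they were 4 and 6 in KO and 1 and 3 in wt. For KO against wt they were 0 and 0 untreated, 0 and 1 at 2 h, 0 and 4 at 6 h and 0 and 2 for the mean of 3, and 0 and 0, 0 and 2 and 0 and 3 for the response difference at 2 h, at 6 h and the late step. Over all genes and in the same order they were 2935 and 5471, 3845 and 6072, 800 and 2317, 4162 and 6727, 3709 and 5366, 2460 and 4946, 0 and 3, 8 and 777, 172 and 1691, 65 and 667, 2 and 33, 18 and 286 and 32 and 1839. No called value changed sign. The causes of these shifts were not tested.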
